A study of Solanum lycopersicum with 12 samples.

Results

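ARGONAUTE proteins are the effectors of plant RNA silencing: each holds a small RNA that guides it to matching transcripts. Here small-RNA reads were followed on the 8 tomato gene loci that carry the names AGO1a, AGO1b, AGO2a, AGO2b, AGO3, AGO4a, AGO4b and AGO7, chosen by their gene identifiers among 34688 loci in the count table, of which 32258 had a read. Members of the family take on different small RNAs. In Arabidopsis, AGO1 mainly uses microRNAs, AGO2 takes part in antiviral defence, AGO4 guides DNA methylation, and AGO7 works with a single microRNA to start the production of secondary small interfering RNAs. Transcripts of ARGONAUTE genes are themselves targets of small RNAs, AGO1 of miR168 and AGO2 of miR403 in Arabidopsis. A read on an ARGONAUTE locus is thus a small RNA, or a short fragment of RNA, that matches the gene, and its number is not the level of the messenger RNA.

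The 12 libraries came from tomato (Solanum lycopersicum). The control group was cotyledon tissue at day 0, cut from seedlings 6 days after sowing, and the other groups were callus that formed from such cotyledons after 12, 14 or 16 days on the culture medium labelled SIM. Each group had 3 libraries, the labels named no mutation or transgene, and the sources used here did not name the cultivar. The table named no genes, so the tissues were not checked against marker genes. The labels did not say whether replicates were separate cultures, so a p-value here reflects library-to-library spread, which may be technical. All 3 callus times were compared with the same cotyledon libraries, and their changes are not independent of each other. The table held reads of 18 to 26 nt, and each library had between 456744 and 698312 reads on gene loci. Gene loci took 14.7 to 18.4% of the library total in cotyledon and 11.3 to 14.9% in callus. On the second principal component 3 callus libraries lay away from the rest, namely the day-12 replicate 3, the day-14 replicate 1 and the day-16 replicate 3, and cotyledon replicate 1, at 24.4, lay away from the other cotyledon libraries, at -11.0 and -10.9.

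The reads of AGO2a and AGO1b rose in callus at all 3 times. AGO2a, the ARGONAUTE locus with the most reads, rose 3.36-fold over the 9 callus libraries, and AGO1b rose 3.61-fold from a low cotyledon level. The AGO1b calls at days 14 and 16 depended on single libraries and on the scaling. AGO4a rose 2.05-fold, and AGO1a fell to 0.623 of its cotyledon level, both with a call that depended on single libraries. Such calls were common: over all callus 40.5% of 6729 tested loci were called, 17.6% as rises and 23% as falls. AGO2b and AGO4b did not pass the test, and AGO3 and AGO7 had too few reads to enter it. Levels below are CPM, that is reads relative to all reads on the tested loci after TMM scaling (scaled CPM), and they are not divided by gene length, so they compare libraries and not genes. In these bulk samples a change in the share of a cell type and a change in RNA per cell cannot be told apart.

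Together the ARGONAUTE loci held 2975 reads over all libraries, 0.0453% of the gene reads. AGO2a had 1150 of them, AGO1a 616, AGO4a 585, AGO1b 279, AGO2b 128, AGO4b 101, AGO3 85 and AGO7 31. A locus with a read had a median of 24 reads, so all 8 lay above the median locus. Of the 8 loci, 6 passed the filter on low counts and were tested among 6729 loci with edgeR's quasi-likelihood test, with p-values adjusted over all of them. AGO1b, AGO2b and AGO4b passed with 1 cotyledon library at the filter's cutoff of 18.7 CPM, against 9, 7 and 3 callus libraries.

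**Figure D1:**
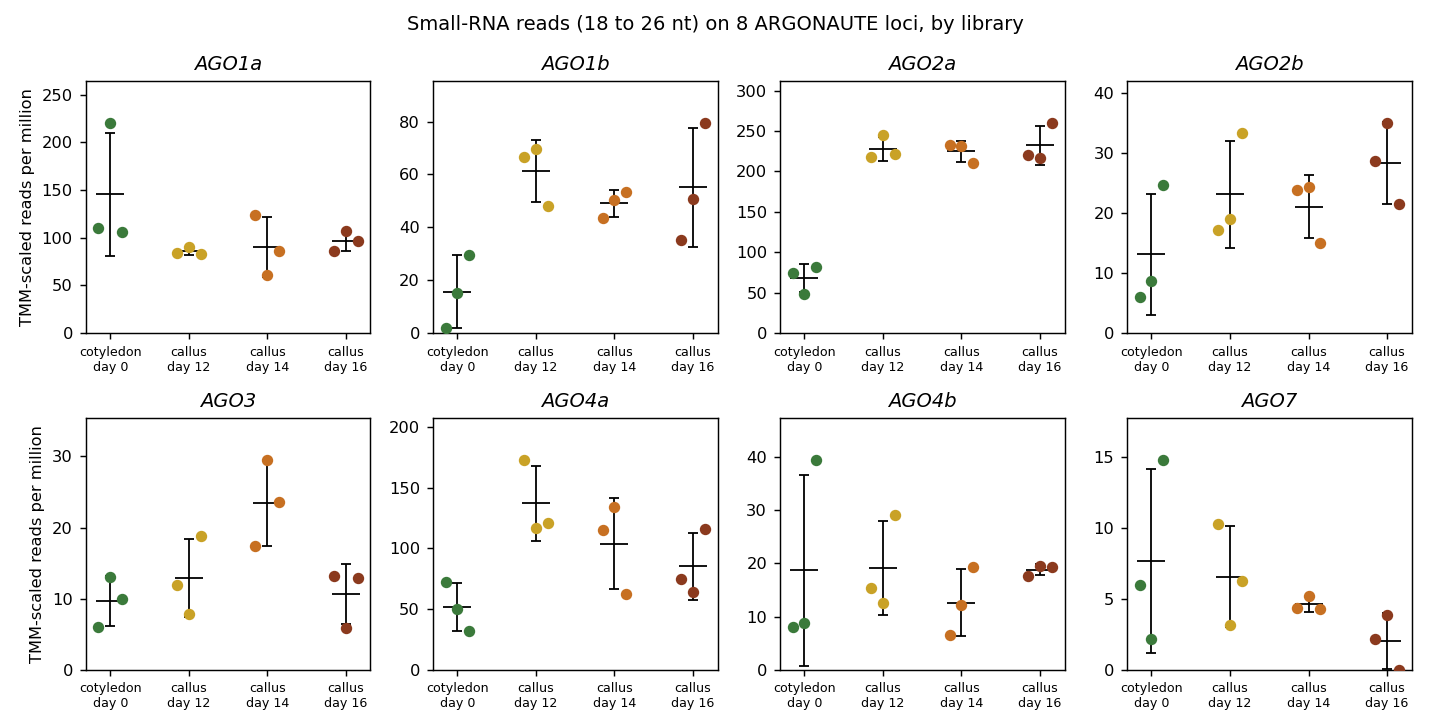
Scaled CPM (y axis, linear, own scale in each panel) on the 8 ARGONAUTE loci in each of 12 libraries, grouped by cotyledon day 0 and callus days 12, 14 and 16 (x axis); points are libraries, the long bar is the mean and the error bars are 1 SD (n = 3). The 9 callus libraries of AGO2a lie between 210 and 260, all above the cotyledon libraries, which reach 81.5.

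AGO1a (Solyc06g072300.4) and AGO1b (Solyc03g098280.4) bear the name of the main microRNA-binding ARGONAUTE. The cotyledon libraries had 110, 220 and 106 scaled CPM on AGO1a. Day-12 callus libraries had 83.9, 90.2 and 83.4, day-14 libraries 124, 60.8 and 85.7, and day-16 libraries 85.9, 107 and 96.6. Cotyledon replicate 2 was the highest of all libraries, with 101 reads against 55 and 43 in the other cotyledon libraries. The mean was 145 ± 64.9 scaled CPM in cotyledon (SD, n = 3) and 90.8 ± 17.5 over all callus (SD, n = 9), and the ranges overlapped. AGO1a fell by 0.68 on the log2 scale (SE 0.26, edgeR adjusted p = 0.0408) over all callus libraries, a comparison in which 40.5% of tested loci were called and 23% fell. Taken one time after the other its log2 changes were -0.76 (day 12, edgeR adjusted p = 0.0797), -0.70 (day 14, adjusted p = 0.114) and -0.59 (day 16, adjusted p = 0.181). Without cotyledon replicate 2 the all-callus change was -0.25 with an adjusted p of 0.494, so the call rested on that library. It was also lost without any 1 of 6 callus libraries, with adjusted p between 0.056 and 0.0779, and without a filter on low counts or without the 21-nt reads, with adjusted p of 0.117 and 0.493.

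AGO1b went the other way. The cotyledon libraries held 1, 7 and 12 reads, and the callus libraries 16 to 44 reads with a median of 26. In scaled CPM the cotyledon libraries had 2, 15.3 and 29.7, the day-12 libraries 66.7, 69.6 and 47.9, the day-14 libraries 43.5, 50.4 and 53.5, and the day-16 libraries 35.2, 50.6 and 79.4. Every callus library was above every cotyledon library, as for 11.8% of tested loci. The log2 change was 2.01 (SE 0.52, edgeR adjusted p = 0.00669) at day 12, where 33.5% of tested loci were called. At day 14 it was 1.69 (SE 0.53, edgeR adjusted p = 0.022) with 31.3% of loci called, and at day 16 it was 1.85 (SE 0.53, edgeR adjusted p = 0.0129) with 30.9% called. Over all callus it was 1.85 (SE 0.47, edgeR adjusted p = 0.00399), a comparison in which 17.6% of tested loci rose. As AGO1b passed the filter through callus, its higher level there is partly a condition for being tested. In the fit without the filter, over 32258 loci, the all-callus change was 1.86 (edgeR adjusted p = 0.000303). The calls at day 12 and over all callus held whichever library was left out. Those at days 14 and 16 did not: the adjusted p was 0.0799, 0.0585 and 0.0515 at day 14 without cotyledon replicate 1, cotyledon replicate 2 or callus day 14 replicate 3, and 0.0583 at day 16 without callus day 16 replicate 3. Without the 3 callus libraries and the cotyledon library that stood apart, AGO1b was 1.26 over all callus (edgeR adjusted p = 0.0257). Its changes at days 14 and 16 were then 1.21 and 0.91, with adjusted p of 0.0749 and 0.194.

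**Figure D2:**
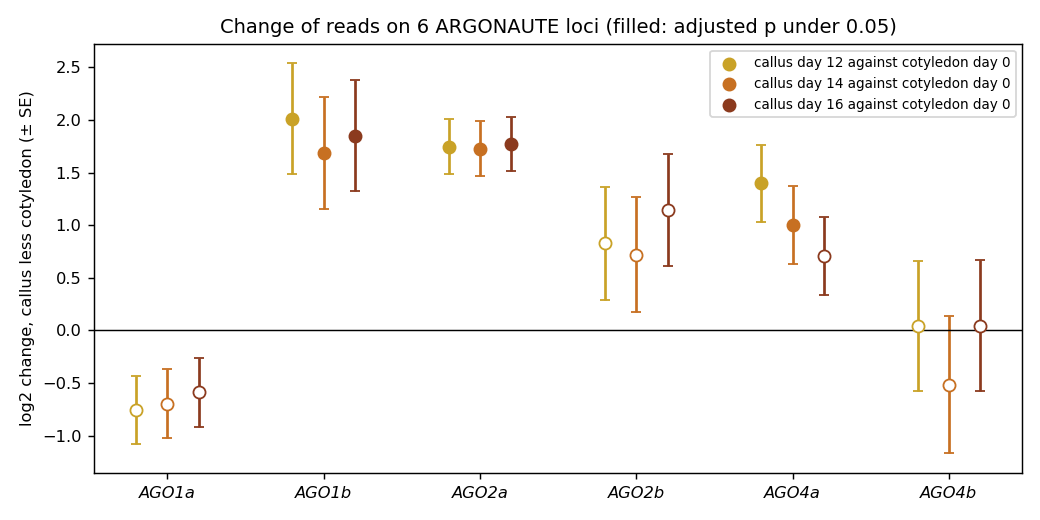
Log2 change of the reads of 6 ARGONAUTE loci (y axis) in callus of days 12, 14 and 16, each against the 3 cotyledon libraries of day 0; points are edgeR estimates, error bars are 1 SE, and filled points have an adjusted p under 0.05. AGO2a lies between 1.73 and 1.77 at the 3 times, while AGO4a goes from 1.40 at day 12 to 0.71 at day 16.

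AGO2a (Solyc02g069260.3), AGO2b (Solyc02g069270.2) and AGO3 (Solyc02g069280.2) have consecutive identifiers, and their names place them with the ARGONAUTE proteins linked to antiviral defence. On AGO2a the cotyledon libraries had 37, 22 and 33 reads, or 73.8, 48 and 81.5 scaled CPM. Day-12 callus libraries had 127, 155 and 106 reads, day-14 libraries 107, 133 and 98, and day-16 libraries 100, 111 and 121. In scaled CPM these were 217, 245 and 221, then 233, 231 and 210, and 220, 216 and 260. The callus libraries were close to each other and none came near the cotyledon range. The cotyledon mean was 67.8 ± 17.6 scaled CPM, and the means of the day-12, day-14 and day-16 callus were 228 ± 15.1, 225 ± 12.8 and 232 ± 24.1 (SD, n = 3 each).

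The log2 change of AGO2a was 1.75 at day 12 (SE 0.26, edgeR adjusted p = 6.17e-05), 1.73 at day 14 (SE 0.26, edgeR adjusted p = 7.54e-05) and 1.77 at day 16 (SE 0.26, edgeR adjusted p = 5.62e-05). Over all callus libraries it was 1.75 (SE 0.23, edgeR adjusted p = 8.66e-06). The groups did not overlap, with callus higher, which held for 11.8% of tested loci in the all-callus comparison. The change lay at the 91.1st percentile of the log2 changes of tested loci. The call held under every alternative tried for this comparison, with log2 changes of 1.49 to 2.08 and adjusted p from 1.59e-10 to 0.000164. Without the 3 callus libraries that stood apart it was 1.73, and without cotyledon replicate 1 as well it was 1.79 (edgeR adjusted p = 0.000127).

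AGO2b did not pass the test, although most callus libraries lay above most cotyledon libraries. The cotyledon libraries had 3, 4 and 10 reads and the callus libraries 7 to 18, with a median of 12. In scaled CPM the cotyledon mean was 13.1 ± 10.1 (SD, n = 3) and the callus mean 24.2 ± 6.99 (SD, n = 9), and the ranges overlapped because of cotyledon replicate 3, at 24.7. The all-callus log2 change was 0.90 (SE 0.46, edgeR adjusted p = 0.128). Without cotyledon replicate 3 it was 1.68 with an adjusted p of 0.0236, a value that rests on leaving out the highest cotyledon library. AGO2b too passed the filter through callus, so a higher level there is partly a condition for being tested. In the fit without the filter its all-callus change was 0.91 (edgeR adjusted p = 0.286).

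AGO3 had 3, 6 and 4 reads in cotyledon, 7, 5 and 9 in day-12 callus, 8, 17 and 11 in day-14 callus and 6, 3 and 6 in day-16 callus. The day-14 libraries were the highest as a group, at 23.5 ± 6.07 scaled CPM against 9.65 ± 3.56 in cotyledon (SD, n = 3 each), and these ranges did not overlap, as they did not, with callus higher, for 21.2% of tested loci. In a fit without the filter, over 32258 loci, the day-14 change of AGO3 was 1.29 on the log2 scale (SE 0.66, edgeR adjusted p = 0.292). The sources used here did not give how reads that match several loci were counted. AGO2a, AGO2b and AGO3, like AGO1a and AGO1b, can resemble each other in sequence, and their reads may be split or shared between copies.

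AGO4a (Solyc01g008960.3) and AGO4b (Solyc06g073540.4) bear the name of the ARGONAUTE that acts in RNA-directed DNA methylation, where it holds 24-nt small interfering RNAs. On AGO4a the cotyledon libraries had 71.8, 50.2 and 32.1 scaled CPM. Day-12 callus libraries had 173, 117 and 121, day-14 libraries 115, 134 and 62.1, and day-16 libraries 74.9, 64.2 and 116. All day-12 libraries lay above the cotyledon range, as they did for 21.8% of tested loci, while 1 later library of each time fell inside it.

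The log2 change of AGO4a was 1.40 at day 12 (SE 0.36, edgeR adjusted p = 0.00663), 1.00 at day 14 (SE 0.37, edgeR adjusted p = 0.0447) and 0.71 at day 16 (SE 0.37, edgeR adjusted p = 0.157). The step from day 12 to day 16 was itself tested: it was -0.69 on the log2 scale (SE 0.35, edgeR adjusted p = 0.618), with day-16 libraries below day-12 libraries without overlap. In that comparison 15.6% of tested loci had groups that did not overlap, and 0.0594% were called. Over all callus the change was 1.04 (SE 0.31, edgeR adjusted p = 0.0135). That call was lost without cotyledon replicate 2 (adjusted p = 0.0512) or cotyledon replicate 3 (adjusted p = 0.0908). The day-12 call held whichever library was left out, but not with reads of 20 to 24 nt only, where the log2 change was 0.99 with an adjusted p of 0.114. The day-14 call was lost under most processing alternatives, with adjusted p between 0.0519 and 0.221.

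AGO4b had 4, 4 and 16 reads in cotyledon, 9, 8 and 14 in day-12 callus, 3, 7 and 9 in day-14 callus and 8, 10 and 9 in day-16 callus. Cotyledon replicate 3 was the highest library and the other cotyledon libraries were among the lowest. The all-callus log2 change was -0.14 (SE 0.52, edgeR adjusted p = 0.848), and without cotyledon replicate 3 its sign turned, to 0.96 with an adjusted p of 0.243. With scaling to library totals it was -0.42.

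AGO7 (Solyc01g010970.3), named for the ARGONAUTE of the miR390 and TAS3 pathway, had the fewest reads. The cotyledon libraries had 3, 1 and 6 reads. Day-12 callus libraries had 6, 2 and 3, day-14 libraries 2, 3 and 2, and day-16 libraries 1, 2 and 0. In the fit without the filter its all-callus log2 change was -0.86 (SE 0.84, edgeR adjusted p = 0.633).

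Callus of day 14 and of day 16 was each compared with day 12, and day 16 was not fitted against day 14. None of the tested ARGONAUTE loci was called in these comparisons, with edgeR adjusted p between 0.618 and 0.999. The background was low too. Between days 14 and 12, 0 loci were called by edgeR, 17 by DESeq2, and 602 had an unadjusted p under 0.05, while between days 16 and 12 edgeR called 4. AGO2a differed from day 12 by -0.02 on the log2 scale at day 14 and by 0.03 at day 16 (SE 0.24 each).

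The scale matters for the size of each change. With TMM the median tested locus changed by 0.10 on the log2 scale over all callus, and with scaling to library totals by -0.16. Relative to the median locus, AGO2a changed by 1.65 with either scaling, and AGO1b by 1.75. AGO4a changed relative to the median by 0.93 with TMM and 0.96 with library totals, and AGO1a by -0.78 and -0.80. Taking off the median removes most of the effect of scaling, so the likeness of these values was fixed in advance and tests nothing. With library totals the fall of AGO1a was also called in day-14 and day-16 callus (adjusted p = 0.0201 and 0.0365), whereas the rise of AGO1b was called in neither (adjusted p = 0.0848 and 0.0535).

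Ratios of reads within a library do not depend on its scaling. The pairs were chosen after their values were seen. For each AGO1a read the cotyledon libraries had 0.218 to 0.767 AGO2a reads, with a mean of 0.553 ± 0.294 (SD, n = 3). The day-12, day-14 and day-16 callus libraries had means of 2.65 ± 0.0638, 2.71 ± 0.987 and 2.42 ± 0.357 (SD, n = 3 each). AGO1a had more reads than AGO2a in all 3 cotyledon libraries and fewer in all 9 callus libraries.

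The ratios were not tested, as they were chosen on these libraries. The mean log2 ratio of AGO2a to AGO1a was -1.04 in cotyledon and 1.34 in callus, a difference of 2.38. For AGO1b to AGO1a the difference of callus from cotyledon was 2.87, for AGO4a to AGO1a it was 1.67, and for AGO2a to AGO4a it was 0.71.

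**Figure D3:**
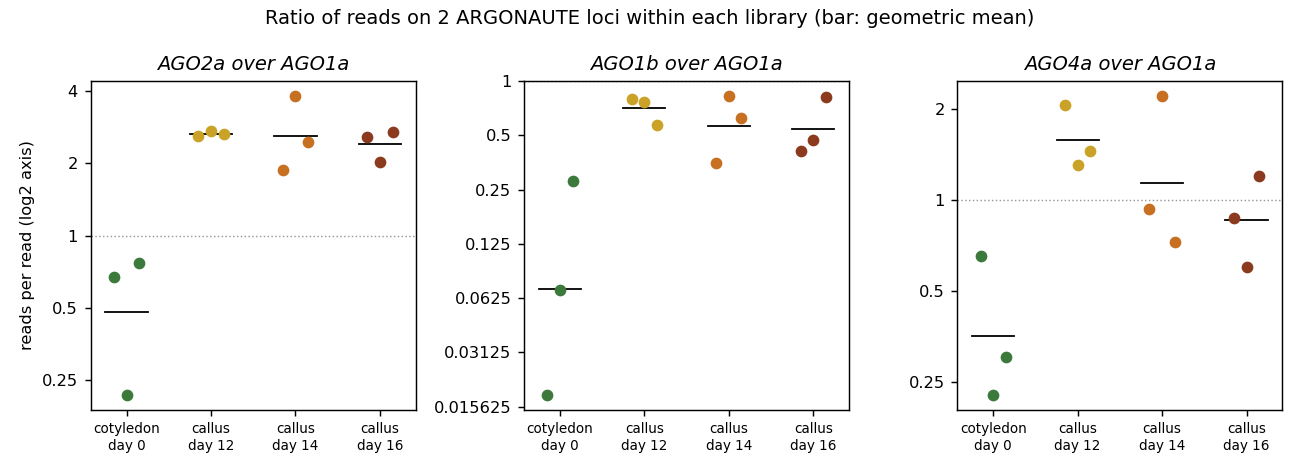
Reads on AGO2a, AGO1b and AGO4a for each read on AGO1a within a library (y axis, log2 scale) in cotyledon of day 0 and callus of days 12, 14 and 16; points are libraries and the bar is the geometric mean of a group (n = 3). In the AGO2a panel the cotyledon libraries lie between 0.218 and 0.767, all below 1, and the callus libraries lie above it.

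The lengths of the reads set the loci apart. Plant Dicer-like enzymes cut small RNAs to fixed lengths: 21 and 22 nt are typical of microRNAs and of small interfering RNAs that act on transcripts, and 24 nt of those that guide DNA methylation. Of all gene reads 42.2% were 21 nt and 21.5% were 24 nt. On AGO2a 63% of 1150 reads were 21 nt (95% Wilson interval 60.1 to 65.7%), and on AGO1a 57% of 616 reads (53 to 60.8%). AGO2b and AGO3 had 50.8% of 128 reads (42.2 to 59.3%) and 49.4% of 85 reads (39 to 59.8%) at 21 nt. The peak of AGO1b was lower, with 23.7% of 279 reads at 21 nt (19 to 29%). AGO4a had no such peak, with 13.8% of 585 reads (11.3 to 16.9%). These intervals cover counting error only, since PCR copies were not marked by molecular identifiers.

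On AGO4a 24-nt reads made up 12.6% of the reads (10.2 to 15.6%), near the 13.8% at 21 nt. The other lengths of AGO4a had similar shares, from 8.21% at 25 nt to 13.7% at 18 nt. AGO2a had 5.13% and AGO1a 3.25% of their reads at 24 nt. AGO1a had 0 reads of 24 nt among its 199 cotyledon reads and 20 among its 417 callus reads, spread over 6 of 9 libraries.

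**Figure D4:**
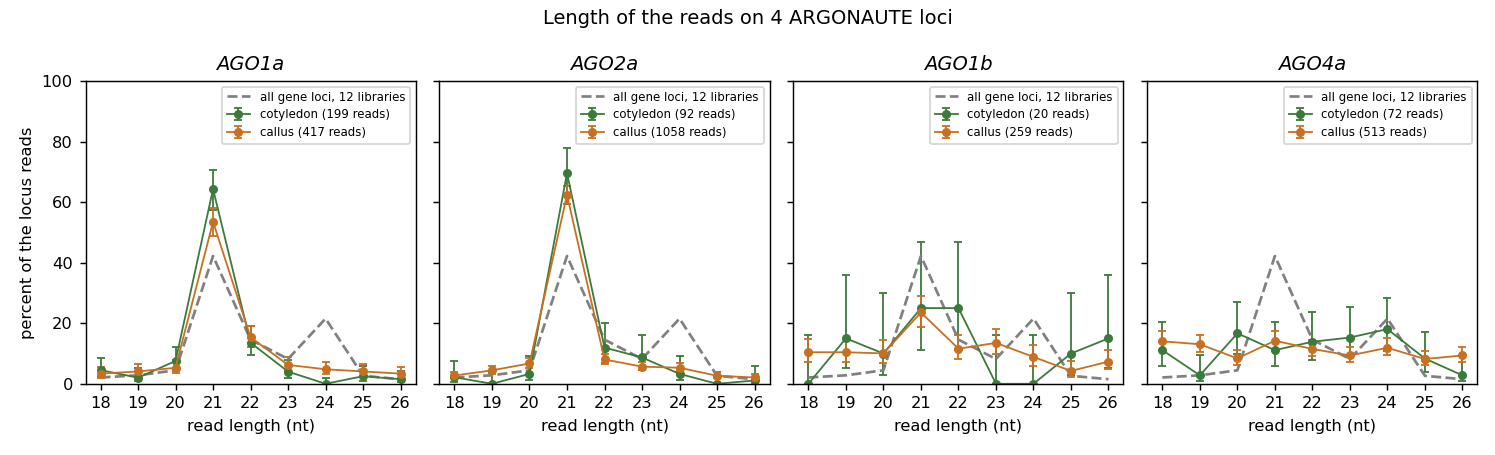
Percent of the reads of AGO1a, AGO2a, AGO1b and AGO4a (y axis) at each read length from 18 to 26 nt (x axis), pooled over the 3 cotyledon and the 9 callus libraries, with 95% Wilson intervals for counting error; the dashed line is the same for all gene loci. AGO1a and AGO2a peak at 21 nt, with 57% and 63% of their reads over all libraries, while AGO1b has a lower peak there, with 23.7%. On AGO4a the shares over all libraries run from 8.21% at 25 nt to 13.8% at 21 nt, with 12.6% at 24 nt.

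The share of 21-nt reads was compared over libraries for AGO1a and AGO2a, the loci with at least 20 reads in every library. The exact permutation tests were two-sided, could not give a p below 0.00455, and were adjusted over this family of 2. On AGO1a it was 63.2% ± 13.8 in cotyledon (SD, n = 3) and 54.5% ± 10.4 in callus (SD, n = 9; exact permutation p = 0.259, adjusted p = 0.314). On AGO2a it was 68.4% ± 8.49 in cotyledon (SD, n = 3) and 62.8% ± 7.68 in callus (SD, n = 9; exact permutation p = 0.314, adjusted p = 0.314). Neither difference passed the test. Over all gene loci the 21-nt share of the pooled reads was 33% in cotyledon and 45.1% in callus. That share weighs loci by their reads, so it does not describe the typical locus.

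The 21-nt reads of AGO2a numbered 26, 13 and 25 in the cotyledon libraries. Day-12 callus libraries had 87, 92 and 67 of them, day-14 libraries 59, 74 and 68, and day-16 libraries 78, 64 and 71. In these unscaled reads no callus library came down to the cotyledon range. The share of loci for which this held was not counted at 21 nt. Fitted on 21-nt reads alone, the log2 change of AGO2a was 1.65 over all callus (SE 0.28, edgeR adjusted p = 8.77e-05), where 53.5% of 989 tested loci were called and 27.3% rose. For the single times it was 1.63, 1.69 and 1.64 (edgeR adjusted p = 0.000471, 0.000398 and 0.000495), with 45.1%, 47.4% and 43.4% of tested loci called. The authors' deposited table gave AGO2a log2 fold changes of 1.69, 1.66 and 1.68 for the 21-nt reads of the successive times (adjusted p = 0.00112, 0.00272 and 0.00279). Of the loci with an adjusted p in the authors' deposited table, 10.6%, 12.2% and 10.9% were called in these comparisons.

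The rise of AGO2a was not limited to 21 nt. The cotyledon libraries together had 0 reads of 19 nt, 3 of 20 nt and 11 of 22 nt on AGO2a, and the callus libraries had 47, 71 and 85. Without the 21-nt reads the AGO2a log2 change over all callus was 2.08. On 22-nt reads it was 1.10 (SE 0.42, edgeR adjusted p = 0.0421), where 45.8% of 781 loci were called. That call was lost when any 1 of 8 libraries was left out, with adjusted p up to 0.119. The authors' deposited table also called AGO2a at 19 nt at all 3 times, with log2 fold changes of 4.85, 5.05 and 5.23, which rest on a cotyledon group without reads and are no measure of size. At 19 nt it called 14.1%, 17.8% and 17.9% of loci. At 20 nt the authors' deposited table called AGO2a at day 12 and day 14, with log2 fold changes of 3.34 (adjusted p = 0.0195) and 3.54 (adjusted p = 0.0151), where it called 14% and 15.5% of loci. As they rest on 3 cotyledon reads, these values are no measure of size either.

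The 21-nt reads of AGO1a numbered 42, 65 and 21 in cotyledon, and callus libraries had 17 to 32. Of 989 loci tested on 21-nt reads, 53.5% were called over all callus and 45.1% at day 12. The 21-nt change of AGO1a was -0.80 over all callus (SE 0.25, edgeR adjusted p = 0.0135) and -1.20 at day 12 (edgeR adjusted p = 0.00626). In day-14 and day-16 callus it was -0.61 and -0.59 (edgeR adjusted p = 0.134 and 0.143). The all-callus call was lost without cotyledon replicate 1 (adjusted p = 0.0899) or cotyledon replicate 2 (adjusted p = 0.156). The day-12 call on 21-nt reads was not refitted without single libraries. For AGO1a at day 12 the authors' deposited table gave a log2 fold change of -1.16 with an adjusted p of 0.105.

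The reads of AGO1b in callus came at all lengths. At 18, 23 and 24 nt the cotyledon libraries had 0 of their 20 AGO1b reads, and the callus libraries had 27, 35 and 23 of 259. With so few cotyledon reads, a length without any is not shown to be limited to callus. The authors' deposited table called AGO1b at 18 nt at day 16 (log2 fold change 4.74, adjusted p = 0.0331) and at 23 nt at day 12 (5.15, adjusted p = 0.0407), where it called 17.9% and 8.46% of loci. With no cotyledon reads these fold changes too are no measure of size. AGO4a was the only ARGONAUTE locus to pass the filter of the edgeR fit on 24-nt reads. Its 24-nt log2 change over all callus was 0.85 (SE 0.73, edgeR adjusted p = 0.368), a fit in which 41.4% of 2358 loci were called. The authors' deposited table also tested AGO2a at 24 nt, with adjusted p of 0.418 at day 12 and 0.114 at day 14. In the authors' deposited table AGO4a was called in callus of day 12 at 18, 19 and 26 nt, with log2 fold changes of 2.41, 3.89 and 4.03, where 16.9%, 14.1% and 21% of loci were called. It was also called at 19 nt at day 14, with 3.83 (adjusted p = 0.0242), where 17.8% of loci were called. The cotyledon libraries together had 8, 2 and 2 AGO4a reads at 18, 19 and 26 nt. The AGO4a fold changes at 19 and 26 nt are therefore no measure of size.

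Other genes of small-RNA production were taken from a list of 19 identifiers of Dicer-like enzymes, which cut small RNAs, RNA-dependent RNA polymerases, which make the double strand, and further ARGONAUTE genes. The identifiers were recalled from memory and the files hold no names for them, so the list is given by counts and not by identifier. Of the 19, 16 were in the table and 10 passed the filter. Over all callus, 7 of the 10 rose and 1 fell, against 17.6% and 23% of all tested loci. Those that rose were 5 of 6 listed as Dicer-like and 2 of 3 listed as RNA-dependent RNA polymerases, and the 1 further ARGONAUTE locus tested did not pass. Both polymerase loci that rose, and 1 of the Dicer-like loci that rose, had cotyledon means of 8.42 scaled CPM or less. That is below the filter's cutoff of 18.7 CPM. These loci passed the filter through callus, which favours rises in such counts. Some of the Dicer-like loci that rose have consecutive identifiers, and their reads may be split or shared between copies. The counts therefore need not stand for separate genes.

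The loci whose pattern over the 12 libraries was most like that of AGO2a were sought among 6704 loci by Pearson's r of log2(CPM + 1), which describes these libraries and rests on the same difference between tissues. Solyc07g008600.1 had r = 0.98, with 5 to 7 reads per cotyledon library and 68 to 131 per callus library. Solyc10g076830.2 had r = 0.972, with 7 to 11 and 45 to 76. The locus most like AGO1a, Solyc04g009160.4, had r = 0.878, with 10 to 24 reads in cotyledon and 3 to 10 in callus.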

How the data were processed

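Small RNAs of 12 tomato libraries were sequenced by the authors after adapters were ligated to both RNA ends, per the labels' protocols. The submitters' processing notes name fastp, Bowtie and DESeq2; versions and genome build: not given in the sources used here. Per the file headers, the authors deposited whole-number counts for each gene locus, split by library (12) and read length (9) into 108 columns. A second deposited table held TPM values by length and strand, whose scaling gave back library totals of 2769024 to 4799134 reads (216 values whole within 0.05 reads). The last deposited table held the authors' DESeq2 comparisons by length, as log2 fold changes with p-values, raw and adjusted.

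Counts were summed over 18 to 26 nt and fitted over all loci and all 12 libraries with edgeR 4.0.16 (R 4.3.3, limma 3.58.1): TMM scaling (factors 0.881 to 1.24), filterByExpr with a minimum count of 10, the quasi-likelihood F test and Benjamini-Hochberg adjustment at 0.05 over 6729 loci. The biological coefficient of variation was 0.333. SE is the log2 change over the square root of F. Single lengths were fitted likewise. DESeq2 1.42.0 was an alternative. Exact permutation tests over 220 splits and Wilson intervals used SciPy 1.17.1 (Python 3.11.15), and log2 ratios used a pseudocount of 0.5. Other alternatives were RLE and library-total scaling, no filter, only the groups compared, a replicate block, 20 to 24 nt only, leaving out each library, and leaving out 3 callus libraries. The within-library ratios, their alternatives, the fit without 21-nt reads and the fit without those 3 and cotyledon replicate 1 were chosen after seeing the data.

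In counts simulated from these libraries with 200 changed loci, the all-callus comparison recovered 9% of 2-fold and 78% of 4-fold changes with 7 false calls, and the day-12 comparison 2% and 53% with 6, over 6729 loci each. In the real all-callus comparison 40.5% of loci were called, so the adjustment was less strict there and those rates do not describe it. AGO3 and AGO7 did not pass the filter and were not in the simulation. No 2 replicates were copies: chi-square per degree of freedom was 4.79 to 20.6. Deviations from the group means of libraries with the same replicate number correlated with r from -0.25 to 0.20. No comparison with libraries of different numbers was made, so these values cannot show whether the numbers pair libraries.

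The loci, lists and tests were chosen with earlier results of these data known. All 8 loci could be named, with values in every library. For AGO2a and for loci called in the all-callus comparison, the loci with the highest Pearson's r among those with a mean of at least 10 CPM could be named, at most 2 that rose and 2 that fell. None of the 8 identifiers matched the gene table at hand (0), so the names are those used to choose the loci, and sequences and positions are not given here.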

Additional observations from a re-analysis of the deposited data

How the results depend on the processing

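The reads are few: AGO1a, AGO2a and AGO4a were the ARGONAUTE loci that reached 100 reads in any library. A missing call on AGO2b, AGO3, AGO4b or AGO7 is thus no sign of a constant level. The calls of AGO2a against cotyledon held under all alternatives tried for 18 to 26 nt, and the AGO1b calls at day 12 and over all callus likewise. Values are log2 changes against cotyledon unless stated, and the cause of a lost call was not tested.

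Whether libraries with the same replicate number belong together is not known. With the replicate block AGO4a at day 14 was 1.02 (adjusted p = 0.0519), AGO1a over all callus -0.65 (adjusted p = 0.0689) and AGO4b over all callus 0.0044, and 0 loci were called between days 16 and 12. No other call on the ARGONAUTE loci changed with it. AGO4a at day 14 was also not called with RLE (0.97), library totals (0.68), no filter (1.01), DESeq2 (0.97), without the 3 callus libraries that stood apart (0.95), with 20 to 24 nt (0.78) and without 21-nt reads (0.93). AGO4a was not called over all callus with library totals (0.80) or 20 to 24 nt (0.71), or at day 12 with 20 to 24 nt (0.99). AGO1b was not called with library totals at day 14 (1.33) and day 16 (1.5), or at day 16 without the 3 callus libraries (1.48). AGO1a over all callus was not called without a filter (-0.67) or without 21-nt reads (-0.32), and was called at day 14 (-1.07) and day 16 (-0.96) with library totals and at day 14 (-0.98) without the 3 callus libraries. Without these and cotyledon replicate 1, AGO1b was not called at day 14 (1.21) or day 16 (0.91), AGO1a was called at day 14 (-1.17), and AGO4b was -0.71 at day 12 and -0.39 at day 16.

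Changes near 0 turned sign. AGO4b was -0.00205 with RLE, -0.32 with library totals and -0.013 with DESeq2 at day 16, and -0.068 with library totals and -0.33 without the 3 callus libraries at day 12. Between days 16 and 12, AGO2a was -0.021 with RLE, -0.25 with library totals, -0.022 with DESeq2, -0.014 with only the 2 groups, -0.16 without the 3 callus libraries, -0.058 with 20 to 24 nt and -0.081 without 21-nt reads. AGO4b was there -0.042 with RLE, -0.25 with library totals, -0.049 with DESeq2 and -0.028 with only the 2 groups, and AGO1a -0.10 with library totals and -0.43 without 21-nt reads. Between days 14 and 12, AGO1a was -0.22 with library totals, -0.30 without the 3 callus libraries, -0.089 with 20 to 24 nt and -0.36 without 21-nt reads, AGO2b 0.10 and AGO4b 0.10 without the 3 callus libraries, and AGO2a 0.044 without 21-nt reads. The callus less cotyledon difference in the 21-nt share of AGO2a was 0.27 percentage points with 20 to 24 nt as the denominator.

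Counts of called loci between days 14 and 12 were 36 without a filter and 17 with DESeq2. Between days 16 and 12 they were 51 without a filter, 14 with DESeq2, 2 without the 3 callus libraries, and 0 with library totals, with 20 to 24 nt and without 21-nt reads.

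Leaving out 1 library at a time gave ranges of -0.86 to -0.25 for AGO1a, 0.54 to 1.68 for AGO2b, 0.80 to 1.36 for AGO4a and -0.52 to 0.96 for AGO4b over all callus. At day 12 AGO4b ranged from -0.34 to 1.15. At day 14 AGO1a ranged from -0.98 to -0.27, AGO1b from 1.14 to 2.51, AGO4a from 0.76 to 1.33 and AGO4b from -0.91 to 0.59. At day 16 AGO1b ranged from 1.30 to 2.67, AGO2b from 0.78 to 1.92 and AGO4b from -0.33 to 1.15. Between days 14 and 12 AGO1a ranged from -0.26 to 0.25, AGO2a from -0.086 to 0.011 and AGO2b from -0.28 to 0.18, and 0 to 1 loci were called. Between days 16 and 12 AGO1b ranged from -0.52 to 0.042, AGO2a from -0.063 to 0.075 and AGO4b from -0.24 to 0.38, and 0 to 2 loci were called. On 21-nt reads AGO1a ranged from -1.04 to -0.55, and on 22-nt reads AGO2a from 0.98 to 1.22. The log2 ratio of AGO2a to AGO1a differed by 1.81 to 2.71, of AGO1b to AGO1a by 2.06 to 3.76, of AGO4a to AGO1a by 1.35 to 2.10 and of AGO2a to AGO4a by 0.46 to 1.15. The all-callus comparison uses every library, so a fit with only the groups compared adds nothing to it.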
